A study of Bos taurus with 252 samples.

Results

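The transcripts described here are the 6 topoisomerase genes of cattle, TOP1, TOP1MT, TOP3A, TOP3B, TOP2A and TOP2B. They were taken by symbol from a table of 33282 genes, and all 6 were among the 19056 genes tested. Whole blood had been drawn from 42 healthy crossbred feedlot steers on day 0 and again 3, 7, 14, 21 and 56 days later into tubes that lyse the cells and stabilise RNA, and each library holds the RNA of 1 steer on 1 day. The steers formed 7 groups of 6: an undosed negative control (NC) and groups given a single dose of enrofloxacin (ENRO), tulathromycin (TULA), tildipirosin (TILD), oxytetracycline (OXYT), florfenicol (FLOR) or ceftiofur (CEFT) on day 0, after the day 0 blood had been taken. All groups, NC included, had received tildipirosin, vaccines, a growth implant and antiparasitic drugs at the earlier grow yard, so NC steers were not free of an antimicrobial history. Each treatment was kept in a pen of its own and the groups were handled in a fixed order on the sampling days, so pen, order and treatment cannot be told apart.

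Topoisomerases relieve the twisting of DNA by cutting it, passing strands through the cut and sealing it again. Type I enzymes cut a single strand and type II enzymes cut both. TOP1 relaxes supercoils ahead of transcription and replication, and TOP1MT is its counterpart in mitochondria. TOP3A resolves joined DNA strands together with the BLM helicase and also acts in mitochondria, and TOP3B acts on RNA as well as DNA as the partner of TDRD3. TOP2A is made mainly by dividing cells, which need it to separate chromosomes, whereas TOP2B is also made by resting cells and acts at transcribed genes. Enrofloxacin is a fluoroquinolone, a class of drugs that blocks the bacterial type II topoisomerases, gyrase and topoisomerase IV, and the vertebrate type II enzymes are the relatives of these targets. The comparison of ENRO with NC asked whether transcripts of the host's own topoisomerases differed after dosing.

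Library totals lay between 26.1 M and 74.1 M counts (M for mega) with a median of 43.6 M. Levels are given as CPM, the counts scaled to a common library total with a TMM factor that evens out differences in composition. TOP1, TOP3A, TOP3B, TOP2A and TOP2B had counts in every library of the 42 steers, the lowest being 465 counts of TOP2A. TOP1MT had no count in 142 libraries, counts in 110 and at most 14 counts in any, and only 12 libraries lay above 0.2 CPM, the number needed for a gene to be tested. Its counts came from 41 of 42 steers, and 18 of 36 NC and 18 of 36 ENRO libraries held any. Differences of TOP1MT were therefore barely measurable at this depth and no fold change of it is given. The 5 other genes differed in how much they varied over all libraries. The SD of log2 CPM was 0.50 for TOP2A, 0.34 for TOP1, 0.30 for TOP3B, 0.21 for TOP3A and 0.20 for TOP2B. Of the 13802 genes with a mean of at least 1 CPM, 67.7% had a lower SD than TOP2A and 11.1% a lower SD than TOP2B. The counts carry no transcript length, so levels are not compared between genes.

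In ENRO against NC, 1 of 36 member tests passed, that of TOP2A on day 3, at which TOP2A was lower in ENRO. TOP2A was lower by a like amount on day 0, before dosing, although it did not pass there. TOP1 lay above NC and TOP3B below NC on all 6 days without passing on any, while fold changes ran from −0.11 to 0.08 for TOP3A and from −0.14 to 0.21 for TOP2B on the log2 scale, with none past the test. Over all genes the day test called 3.33% on day 3 and far fewer on the other days, namely 0.00525% on days 0 and 21, 0.0105% on days 14 and 56 and 0.0157% on day 7. The share on day 3 is itself unsteady. Its 634 genes became between 35 (without NC7) and 1209 (without NC5) when 1 steer was left out, a move of over 1.5 times for every steer but NC1 and Enro2. The plot of values in NC and ENRO shows these courses steer by steer.

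**Figure D1:**
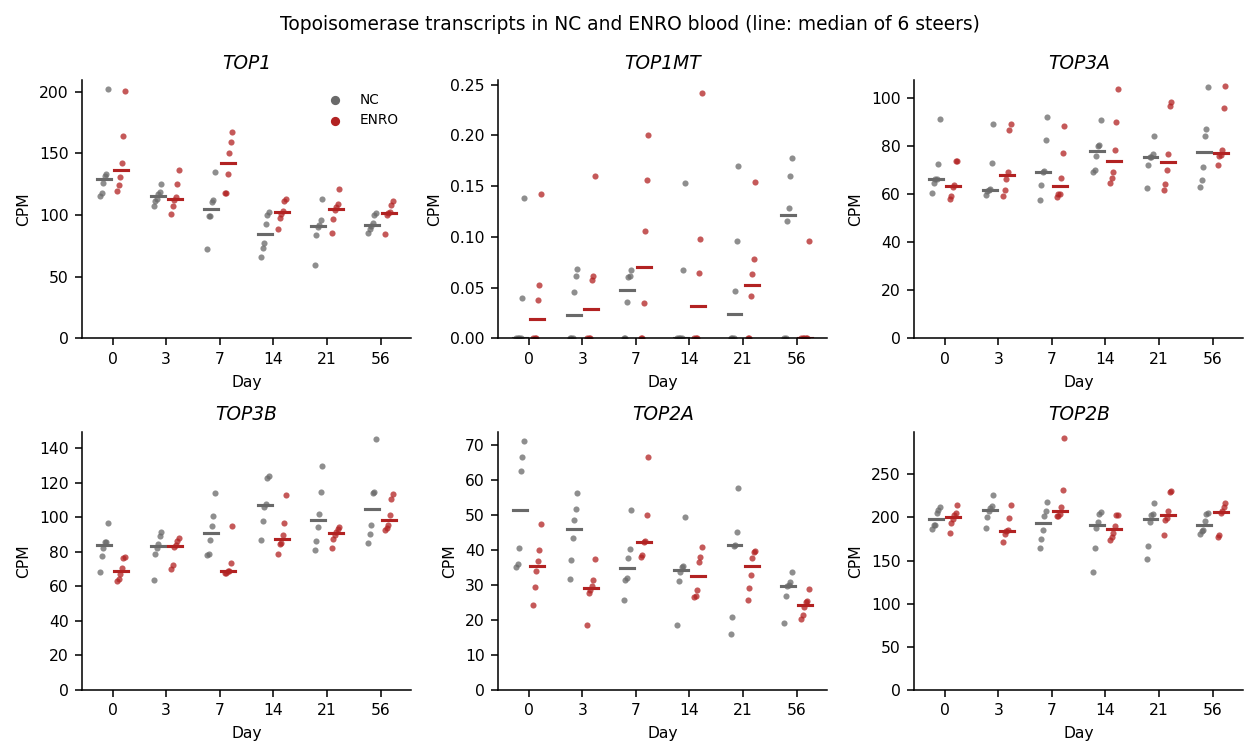
CPM (linear axis from 0) of the 6 genes by day in NC (dark grey) and ENRO (red). Each point is 1 steer and each short line the median of 6 steers. On day 3 the ENRO median of TOP2A was 29.1 CPM against 45.8 CPM in NC, with overlapping points, and TOP1MT did not exceed 0.385 CPM in any library of any group.

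TOP2A, the enzyme of dividing cells, lay between 18.4 and 37.3 CPM in ENRO on day 3, with a median of 29.1 CPM. In NC it lay between 31.8 and 56.3 CPM, with a median of 45.8 CPM. The groups overlapped, although 5 of 6 ENRO steers were below the lowest NC steer, and 2.18% of all genes had groups that did not overlap. The means were 28.8 ± 6.14 CPM in ENRO and 44.7 ± 9.20 CPM in NC (SD, n = 6 each), a log2 fold change of −0.64 with an SE of 0.17 and an FDR of 0.0906 by edgeR's quasi-likelihood test. The share of all genes called lower in this comparison was 1.66%. This FDR sits at the threshold of 0.1. The call was lost without the filter on low counts (FDR 0.146), with lane as a term over the 42 libraries of the day (FDR 0.144) and with another form of the test. The form used adjusts the residual deviances of low counts, and the older form, the default of the edgeR version at hand, gave an FDR of 0.101 and no member called. The newer form was kept because it repeats an earlier processing of these counts, and both values had been seen when it was chosen. Leaving out 1 steer ended the call in 9 of 12 cases, all but those without NC5, Enro2 or Enro9, with FDRs from 0.0470 to 0.179, while the log2 fold change stayed between −0.73 and −0.54.

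On day 0 the ENRO steers already had less TOP2A, between 24.3 and 47.4 CPM with a median of 35.3 CPM. The NC steers had between 35.1 and 70.96 CPM with a median of 51.5 CPM. The log2 fold change was −0.56 with an SE of 0.22 and did not pass (FDR 0.749). From day 0 to day 3 the mean change of TOP2A within steers was −0.29 ± 0.29 log2 units in ENRO and −0.18 ± 0.27 in NC (SD, n = 6 each). The difference of these changes was −0.09 with an SE of 0.30 and an FDR of 0.976, so a change after dosing beyond that in NC was not detectable with these steers.

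Between day 0 and day 7 the changes in the groups had opposite signs. TOP2A was higher on day 7 than on day 0 in 5 of 6 ENRO steers and in 1 of 6 NC steers. The mean change was 0.39 ± 0.56 log2 units in ENRO and −0.48 ± 0.56 in NC. The difference was 0.89 with an SE of 0.30 and an FDR of 0.0529, which missed the threshold of 0.05 used for changes from day 0. At that threshold 6.24% of all genes were called on day 7. Over the 5 days together the change in ENRO was compared with that in NC by an F test. In it TOP2A had an FDR of 0.112 and no member passed, while 8.67% of all genes were called (1652 genes, and 250 without steer as a block). Fitted on the ENRO and NC libraries alone, the same test called TOP2A with an FDR of 0.0328. Leaving out 1 steer ended that call in 8 of 12 cases, all but those without NC1, NC15, Enro6 or Enro9 (FDR 0.00172 to 0.207). The genes called in that fit numbered 1345, and between 415 (without NC5) and 1918 (without NC1) with 1 steer left out. On day 7 itself TOP2A was 46.2 ± 10.8 CPM in ENRO and 36.4 ± 8.88 CPM in NC, with an FDR of 0.367.

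TOP2A did not stand alone on day 3. Of 16 cell division genes, 4 were lower in ENRO and none was higher, where 1.66% of all genes were called lower. All 16 fold changes were below 0, and their median was −0.31 against −0.00 over all genes. CENPF, which binds the centromere in mitosis, was 15.2 ± 2.79 CPM in ENRO and 28.96 ± 4.82 CPM in NC (log2 −0.94, FDR 0.0295). CDK1, the kinase that drives entry into mitosis, was lower by 0.77 log2 units (FDR 0.0455), MKI67, a proliferation marker, by 0.72 (FDR 0.0838), and TPX2, a spindle protein, by 0.43 (FDR 0.0898). The same list had a median of −0.35 on day 0, with 1 of 16 fold changes above 0 and no gene called. The summed level of the list on day 3 lay between 460 and 729 CPM in ENRO and between 685 and 970 CPM in NC.

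Cell type markers were at hand for 8 kinds of blood cell, and none of the genes tested in these lists passed in ENRO on day 3. All 5 neutrophil markers tested were above NC, with a median of 0.66, and 7 of 8 erythroid markers were below it, with a median of −0.75. The summed neutrophil markers lay between 1134 and 2423 CPM in ENRO and between 934 and 1625 CPM in NC, and the summed erythroid markers between 2372 and 39603 CPM and between 2870 and 61407 CPM. On day 0, before dosing, the neutrophil list already had a median of 0.47, with 3 of 5 above NC, and the erythroid list one of −0.09, with 4 of 8 above. The other day 3 medians were 0.44 for platelets, 0.23 for B cells, 0.16 for natural killer and cytotoxic cells, 0.12 for plasma cells, 0.04 for monocytes and −0.07 for T cells. Among the defining markers, KLRB1 of natural killer cells was at 0 in 4 libraries and SLC4A1 of erythroid cells in 11. The part of cell composition in the TOP2A difference was not tested, and in whole blood fewer cells of a type and less RNA per cell cannot be told apart.

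Partners of the enzymes and the genes around them gave few calls. Of 14 genes for topoisomerase partners and repair, 13 were tested and none passed on any day. The smallest p on day 3 belonged to TOPBP1, a replication stress protein that binds topoisomerase II (log2 −0.27, FDR 0.132), and BLM, the helicase that works with TOP3A (log2 −0.28, FDR 0.163). Of 14 cohesin and condensin genes, which hold and fold chromosomes, 1 was lower on day 3, the cohesin subunit RAD21 (128 ± 7.10 against 152 ± 11.5 CPM, FDR 0.0927). Of 10 genes for the upkeep of mitochondrial DNA, 2 were lower, the nuclease and helicase DNA2 (log2 −0.76, FDR 0.0788) and the transcription factor TFB2M (log2 −0.36, FDR 0.0927). Of all genes, 1.66% were called lower on day 3.

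Among 16 targets of p53 and DNA damage, genes known to be raised after DNA damage, 12 lay above NC on day 3, with a median of 0.17, and none of these passed. The one gene called was lower. MDM2, which marks p53 for destruction, was 58.2 ± 4.42 CPM in ENRO and 75.4 ± 10.1 CPM in NC (log2 −0.38, FDR 0.0709). On day 0, before dosing, 14 of 16 already lay above NC, with a median of 0.11 and no gene called. No gene of this list passed on days 7, 14, 21 or 56 either, and 15 of 16 lay above NC on day 56.

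TOP1 on day 7 lay between 118 and 168 CPM in ENRO, with a median of 142 CPM, and between 72.4 and 135 CPM in NC, with a median of 105 CPM. The groups overlapped, and 3 of 6 ENRO steers were above the highest NC steer. The log2 fold change was 0.42 with an SE of 0.14, and it did not pass (FDR 0.236). TOP3B on day 7 lay between 67.4 and 94.7 CPM in ENRO and between 78.03 and 114 CPM in NC, with medians of 68.7 and 90.9 CPM. Of the ENRO steers 5 of 6 were below the lowest NC steer and the remaining steer overlapped the group. Its log2 fold change was −0.33 with an SE of 0.12 and an FDR of 0.245, and it had been −0.25 on day 0 (FDR 0.749).

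Averaged over the 6 days, no member passed in ENRO against NC at an FDR of 0.05, where 0.43% of all genes did (82 genes, and 1 gene when counts were summed over the days of a steer), and TOP1 and TOP3B had an unadjusted p under 0.05, as did 8.55% of all genes. TOP1 was 0.19 log2 units higher in ENRO, with a 95% interval from 0.02 to 0.37 (limma, FDR 0.503). TOP3B was lower by 0.17 log2 units, with an interval from −0.33 to −0.02 (limma, FDR 0.457). For TOP3A the interval ran from −0.11 to 0.12 and for TOP2B from −0.07 to 0.18. The model applied 1 within-steer correlation (0.359) to all genes. Steer means of TOP3A had an SD of 0.22 log2 units in ENRO and 0.19 in NC, so its interval may be too narrow. For TOP3B these SDs were 0.11 and 0.18, so its interval, which ends near 0, may be too narrow as well. The interval of TOP2A was wider, from −0.51 to 0.16.

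Set beside ENRO, the other antimicrobials gave 2 calls in 180 member tests, both on day 3 and both lower than NC, TOP2A in FLOR and TOP2B in CEFT. On that day 2.67% of all genes were called in FLOR and 10.9% in CEFT. These shares moved with single steers and with lane. The 508 genes of FLOR became 129 to 497 when 1 steer was left out, by over 1.5 times for all but NC5 and Flor4, and 10 with lane as a term. The 2071 genes of CEFT became 132 (without NC12) to 3836 (without Ceft8), by over 1.5 times for all but NC5 and Ceft10, and 0 with lane as a term. These comparisons share the same NC libraries, so they are not independent of each other or of the ENRO result. TOP2A was below NC in 31 of 36 comparisons over all treatments and days, each set against the same NC steers. These include day 0, before dosing, when TOP2A was already below NC in each treatment. The log2 fold changes of day 0 ran from −0.56 in ENRO to −0.19 in TULA.

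**Figure D2:**
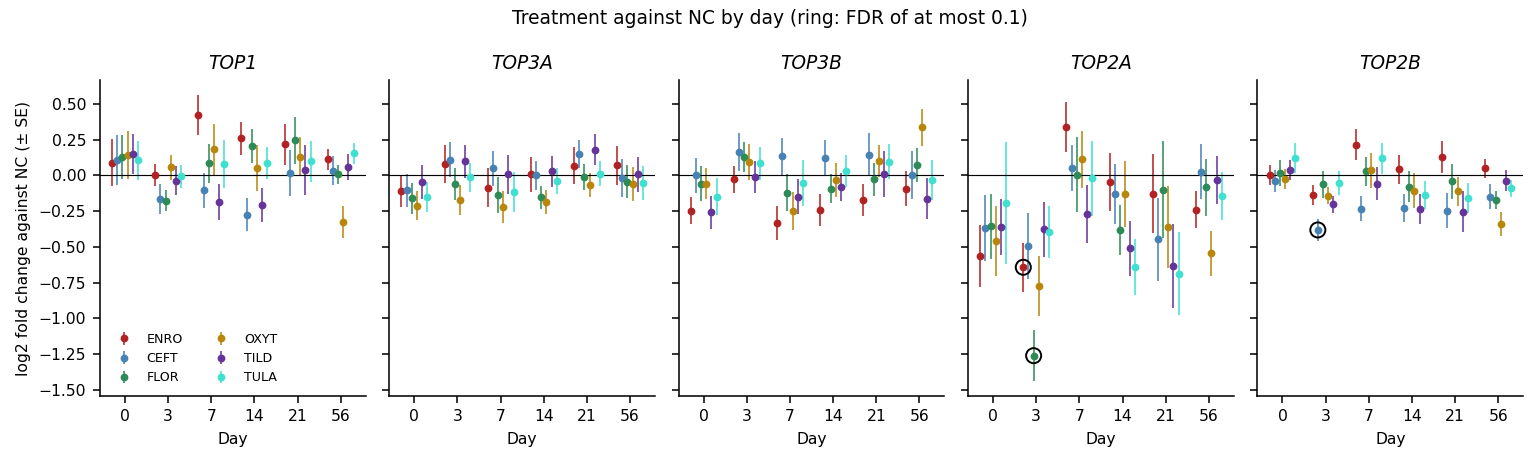
Log2 fold change against NC (± SE, n = 6 steers a group) of 5 genes by day, with 1 colour per treatment and a ring where the FDR was at most 0.1. The rings mark TOP2A in ENRO and FLOR and TOP2B in CEFT, all on day 3, and TOP2A in FLOR was farthest from 0 at −1.26.

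Florfenicol, which blocks bacterial ribosomes and has no topoisomerase target, went with the lowest TOP2A of day 3. The FLOR steers lay between 12.6 and 23.7 CPM with a median of 19.6 CPM, and the NC steers between 31.8 and 56.3 CPM. The groups did not overlap, which held for 2.41% of all genes in this comparison, and 1.92% were called lower. The log2 fold change was −1.26 with an SE of 0.18 and an FDR of 0.0141. On day 0 it had been −0.36 and had not passed, and the change from day 0 to day 3 differed from that in NC by −0.90 with an SE of 0.30, which did not pass (FDR 0.473). Of the 16 cell division genes, 10 were lower in FLOR on day 3, with a median of −0.84. In OXYT, where TOP2A had a log2 fold change of −0.77 on day 3 and narrowly missed the threshold, 3 of 16 were lower, with a median of −0.53, against 1.52% of all genes called lower. In CEFT 1 of 16 was lower, near the share of all genes (4.86%), and in TILD and TULA none (1.84% and 0.0105% of all genes).

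Only part of this comparison lies within a sequencing lane. All NC and ENRO steers were sequenced on lane 1, together with 2 of 6 FLOR steers. These 2 steers had 19.8 and 22.9 CPM of TOP2A on day 3, below every NC steer, and the 4 FLOR steers on lane 2 had between 12.6 and 23.7 CPM. With lane as a term over the 42 libraries of day 3 the log2 fold change was −1.09 and no longer passed (FDR 0.380). CEFT, OXYT, TILD and TULA share no lane with NC, so these 4 treatments cannot be compared with NC within a lane. The lanes are linked only by FLOR (2 steers on lane 1, 4 on lane 2) and TILD (4 on lane 2, 2 on lane 3). A lane term for these treatments therefore rests on those few steers and on lane acting alike in all groups. Each steer was on the same lane on all 6 days.

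TOP2B in CEFT, a group given a blocker of bacterial cell wall synthesis, lay between 144 and 173 CPM on day 3. In NC it lay between 188 and 226 CPM. The groups did not overlap, as was the case for 3.58% of all genes, and 4.86% were called lower. The log2 fold change was −0.38 with an SE of 0.07 and an FDR of 0.0410. On day 0 it had been −0.04 and had not passed (FDR 0.965). Within steers TOP2B changed from day 0 to day 3 by −0.27 log2 units in CEFT and by 0.06 in NC, and no test of that day alone is given here. The change of TOP2B from day 0, compared with that in NC over 5 days together, did not pass (FDR 0.249). With ComBat_seq by lane and a likelihood ratio test, which changes the counts and the test together, the log2 fold change of day 3 was −0.23 with an FDR of 0.527. TOP2B did not overlap NC in TILD on day 3 either, at 168 to 187 CPM, but did not pass (log2 −0.20, FDR 0.126), with 2.5% of all genes not overlapping.

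TOP3B was the only member whose change from day 0 differed from that in NC at an FDR of 0.05, and it did so in OXYT (FDR 0.00945 over 5 days), where 3.25% of all genes were called. From day 0 to day 56 its mean change was 0.78 ± 0.20 log2 units in OXYT and 0.36 ± 0.24 in NC (SD, n = 6 each). It was higher on day 56 in 6 of 6 OXYT and 5 of 6 NC steers. The difference of 0.41 had an SE of 0.12 and an FDR of 0.0531 on that day alone, which missed the threshold. OXYT steers had 136 ± 15.5 CPM on day 56 and NC steers 107 ± 22.3 CPM, which overlapped.

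Day of sampling accounted for more of the variance of log2 CPM than treatment did for TOP1, TOP3A, TOP3B and TOP2A, and for about as much in TOP2B (17.31% against 16.97%). Over all 42 steers, 5 of 6 members changed with day, namely all but TOP1MT (FDR 0.120). As 80.4% of all genes were called, this count is near the background. The 5 genes divided by direction. By day 56 TOP1, TOP2A and TOP2B had fallen, and TOP3A and TOP3B had risen. Of all genes 39.7% were called with a lower and 40.7% with a higher mean on day 56 (31.9% and 33.5% in the direct test of day 56 against day 0), and the median change of all genes was 0.02 log2 units.

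**Figure D3:**
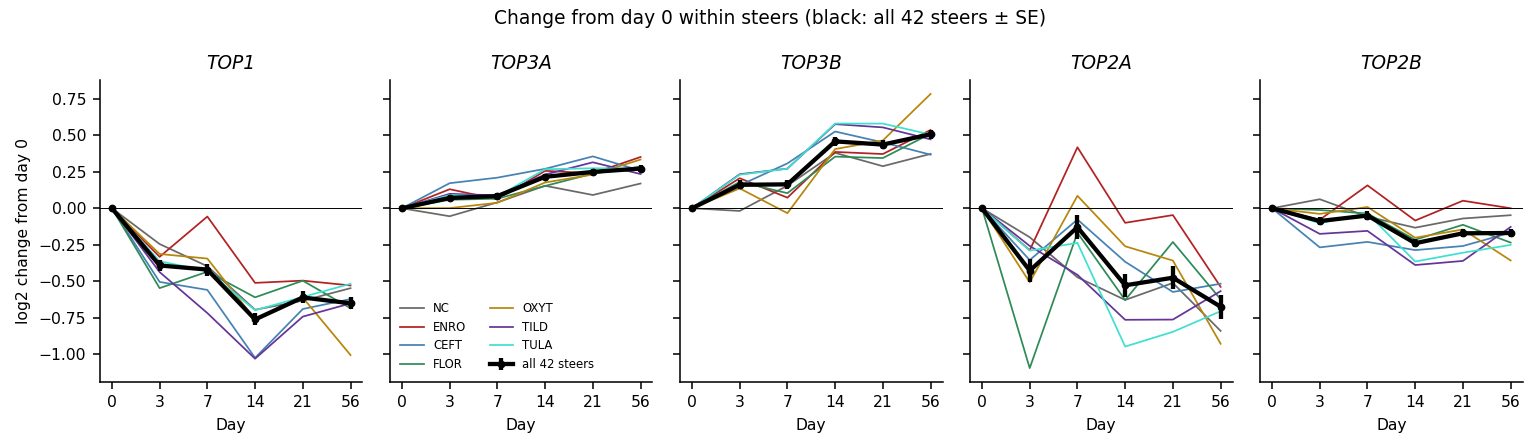
Log2 change from day 0 within steers for 5 genes, with a coloured line for each of the 7 groups (6 steers each) and a black line with SE for all 42 steers. TOP1 and TOP2A ended at −0.65 and −0.68 on day 56, TOP2B at −0.17, TOP3A at 0.27 and TOP3B at 0.51.

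TOP1 had the largest fall in relation to its error. It averaged 148 ± 27.1 CPM on day 0 and 94.1 ± 13.5 CPM on day 56 (SD, n = 42), a log2 change of −0.65 with an SE of 0.04 and an FDR of 4.24e-34. It was lower on day 56 in 42 of 42 steers. The fall was in place by day 3 (112 ± 14.5 CPM, 40 of 42 steers, with 20.2% of all genes called lower) and deepest on day 14 (87.4 ± 14.9 CPM), after which TOP1 rose by 0.15 log2 units to day 21 (FDR 0.00465, with 7.93% of all genes called higher). Day accounted for 51.4% of the variance of its log2 CPM and steer for 18.4%, each taken alone. The change by day 56 lay below 0 in each of the 7 groups, from −0.52 in TULA to −1.01 in OXYT on day 56.

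TOP3B took the opposite course. It averaged 76.7 ± 12.4 CPM on day 0 and 109 ± 20.1 CPM on day 56, a log2 change of 0.51 with an SE of 0.03 (FDR 7.75e-35), and 39 of 42 steers were higher. Most of the step came between day 7 and day 14, when it rose by 0.29 log2 units (FDR 7.09e-15) in 41 of 42 steers, while 26.2% of all genes were called higher. TOP3A rose less, from 65.1 ± 7.83 to 78.7 ± 9.47 CPM (log2 0.27, SE 0.02, FDR 2.63e-24), and was higher in 38 of 42 steers. TOP3A differed mainly between steers. Steer accounted for 55.3% of its variance and day for 24.5%, and steer means over the 6 days ran from 62.4 to 92.7 CPM.

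Of the type II enzymes TOP2A did not fall steadily. It averaged 41.6 ± 18.2 CPM on day 0 and 31.3 ± 11.1 CPM on day 3. It then rose to 37.5 ± 11.4 CPM on day 7 (log2 0.30, SE 0.08, FDR 0.00296), a step in which 10.7% of all genes were called higher. It fell to 28.6 ± 7.59 CPM on day 14 (log2 −0.40, FDR 9.39e-06), when 23.3% of all genes were called lower, and was 25.8 ± 6.43 CPM on day 56. On day 56 it was below day 0 in 37 of 42 steers. TOP2B fell from 201 ± 19.7 to 179 ± 20.5 CPM (log2 −0.17, SE 0.03, FDR 5.35e-08) in 36 of 42 steers. Within groups, the effect of day on TOP2B did not pass in NC (FDR 0.305, with 36% of all genes called) and that on TOP2A did not pass in CEFT (FDR 0.0773, with 47.3% called). The change of TOP2A or TOP2B from day 0 differed from that in NC in no treatment at an FDR of 0.05. TOP2B in ENRO was at its day 0 level on day 56, with a log2 change of 0.00 and an SE of 0.08.

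The genes around the topoisomerases moved with day as most genes did. All 13 partner and repair genes tested passed the test over the 6 days. In the test of day 56 against day 0, 7 were lower and 4 higher, TDRD3 and TOPORS did not pass, and the median was −0.13. FMR1, a partner of TOP3B through TDRD3, fell by 0.49 log2 units, and RMI1, which works with TOP3A and BLM, fell by 0.45, while XRCC1, a scaffold of single-strand break repair, rose by 0.49. TOP3A and TOP3B had risen over the same days. Of 14 cohesin and condensin genes, 11 were lower and 2 higher on day 56, with STAG2 at −0.68 and SMC3 at −0.64 (both cohesin) and SMC4, a condensin subunit, at −0.73.

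All 16 cell division genes passed over the 6 days, and in the test of day 56 against day 0 11 were lower, none was higher and 5 did not pass. Among the 11 were NUSAP1 and CENPF at −0.64 each and MKI67 at −0.61. Of 16 p53 and DNA damage targets, 11 were lower and 5 higher on day 56, with the largest changes in GADD45A (−0.73), PMAIP1 (−0.68) and MDM2 (−0.60). Of 10 genes for mitochondrial DNA upkeep, 4 were lower and 4 higher on day 56, with DNA2 at −0.88, TFAM, which packs mitochondrial DNA, at −0.47 and TFB2M at −0.40. The list medians were −0.21 for cohesin and condensin, −0.25 for cell division, −0.27 for p53 and DNA damage targets and −0.07 for mitochondrial DNA upkeep, beside 0.02 for all genes.

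Markers of blood cells moved over the same days. All 6 T cell markers and 5 of 6 B cell markers were higher on day 56, with medians of 0.43 and 0.44, while PAX5 of B cells was lower (−0.40). The summed T cell markers had a median of 1275 CPM on day 0 and 1900 CPM on day 56, with ranges of 894 to 1918 and 1318 to 2690 CPM. Of 5 neutrophil markers tested 4 were lower and CXCR2 did not pass, and all 5 monocyte markers were lower, with medians of −0.59 and −0.67. Of 5 natural killer and cytotoxic markers tested 4 were lower and 1 was higher (median −0.39). Of 4 plasma cell markers 2 were lower and 2 did not pass (median −0.45). In platelets 1 of 5 markers was higher and 4 did not pass, and in erythroid cells 1 of 8 was higher and 7 did not pass (medians 0.14 and 0.51). Summed monocyte markers had a median of 2085 CPM on day 0, ranging from 1208 to 5063 CPM, and of 1569 CPM on day 56, ranging from 872 to 2909 CPM. The part of these shifts in the course of the topoisomerases was not tested.

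Across all libraries the members fell into the same sides. TOP1, TOP2A and TOP2B were positively correlated with each other (Pearson r from 0.47 to 0.59) and negatively with TOP3A and TOP3B (from −0.68 to −0.25), and TOP3A and TOP3B had an r of 0.35. With steer and day taken out, TOP3A and TOP3B had an r of 0.66 and TOP1 and TOP3B an r of −0.59. These values describe libraries that share steers, days and library depth, and they carry no test. TOP1 had an r of 0.62 with the mean of the monocyte markers and −0.64 with that of the T cell markers.

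**Figure D4:**
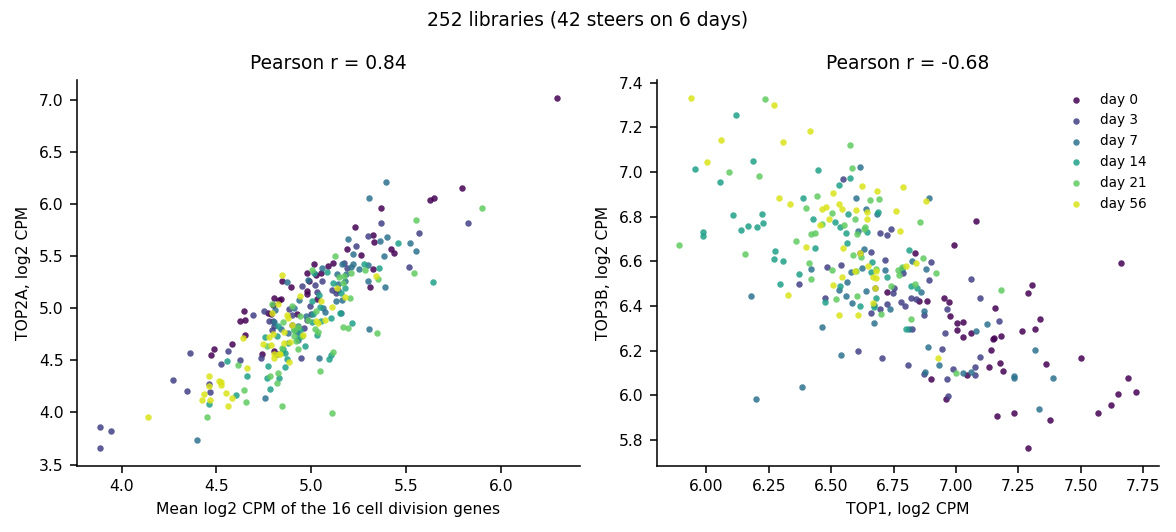
Log2 CPM of TOP2A against the mean log2 CPM of 16 cell division genes (left) and of TOP3B against TOP1 (right), with 1 point for each library (42 steers on 6 days), coloured by day. TOP2A was high where the cell division genes were high (r = 0.84), and TOP3B was low where TOP1 was high (r = −0.68).

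TOP2A followed the cell division list, with an r of 0.84 over all libraries and 0.86 with steer and day taken out. TOP2B had an r of 0.12 with that list, and 0.59 with both the cohesin and condensin list and the partner and repair list. By likeness of pattern over all libraries of the 42 steers, the genes nearest to TOP2A were KIF11, a spindle motor (r = 0.94), KNL1, a kinetochore scaffold (0.93), and ARHGAP11A (0.93). Those nearest to TOP1 were RANBP2, a nuclear pore protein (0.86), NCOA2 (0.86) and RB1CC1 (0.85), and those nearest to TOP2B were GOLGA4 (0.83), USP47 (0.81) and POLR2B, a subunit of RNA polymerase II (0.81). TOP3A was most like JAK3, a cytokine receptor kinase of lymphocytes (0.78), SIRT2 (0.78) and DENND1C (0.76), and TOP3B most like PPP6R2 (0.86) and the RNA helicases DHX37 (0.82) and DHX30 (0.81). No gene exceeded an r of 0.203 with TOP1MT, whose counts were sparse.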

How the data were processed

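Blood RNA of 42 steers was sequenced from stranded mRNA libraries. Per the methods of the study, the authors trimmed reads with Trimmomatic, aligned them with HISAT2 to ARS-UCD1.3, assembled transcripts with StringTie and derived gene counts from transcript coverage with prepDE. The deposited values are raw counts in whole numbers, not adjusted for library size or lane. HISAT2 and StringTie were run at their defaults, which set no library strand, and TOP1 overlaps 4 uncharacterised genes in RefSeq (ARS-UCD2.0), so its reads may be shared with them.

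Genes above 0.2 CPM in at least 12 libraries were tested (19056 of 33282). R 4.3.3, edgeR 4.0.16 and limma 3.58.1 were used, and DESeq2 1.42.0 and sva 3.50.0 for alternatives. Each treatment was compared with NC within a day (6 against 6 libraries) by edgeR's quasi-likelihood test at an FDR of 0.1. Averages over days used limma's voom, with the steers as a random effect, and changes from day 0 and the effect of day used edgeR with steer as a fixed block, each at an FDR of 0.05. FDRs are Benjamini-Hochberg adjusted over all genes tested. Log2 CPM used a prior count of 2. Correlations are descriptions. Scripts were tested on simulated data.

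Steers are the replicates. Libraries of a steer, which the labels name, had a median correlation of 0.342 of their deviations from group means, against −0.0820 between steers of a group, and 42 of 42 steers had a mean above 0.1, so days were paired within steers. Steer numbers do not pair ENRO with NC.

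The members, lists and tests were chosen with earlier results of these data known. The 6 members were always named. From each of 5 gene lists up to 4 genes passing in ENRO on day 3 were named, or the 2 of smallest p where none passed, and for the effect of day up to 3 with the largest change. Alternatives covered scaling, filter, tool, form of the test, lane, hemoglobin genes, block and steers left out.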

Additional observations from a re-analysis of the deposited data

Results flagged for a closer look

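Among the 5 members with counts in every library, 210 groups of 6 steers were checked for a steer far from the rest, and 15 were singled out. Chance singles out about 1 in 20 such groups. In TOP2A these were Tula8 on day 0 (130 CPM, next 38.4 CPM), Tula3 on day 7 (74.1 CPM, next 31.1 CPM), Tula7 on day 3 (52.8 CPM), Oxyt4 on day 0 (65.4 CPM) and Ceft8 on day 7 (49.3 CPM), each the highest of its group. In TOP1 it was NC13 on day 0 (202 CPM, next 134 CPM), the highest. In TOP2B they were Enro2 on day 7 (292 CPM, the highest) and Oxyt5 on day 7 (137 CPM, the lowest). In TOP3A they were Ceft3 on day 14 (98.1 CPM), Flor10 on day 7 (83.5 CPM), Tild2 on day 21 (110 CPM) and Tula6 on day 3 (76.3 CPM), all the highest. In TOP3B they were Enro9 on day 7 (94.7 CPM) and Ceft4 on day 21 (161 CPM), the highest, and Flor7 on day 3 (68.3 CPM), the lowest.

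The change of TOP3B from day 0 differed between OXYT and NC (edgeR, FDR 0.00945 over 5 days together), with 136 CPM in OXYT and 107 CPM in NC on day 56. OXYT was sequenced on lane 3 and NC on lane 1, each steer on the same lane on all days.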

How the results depend on the processing

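In ENRO against NC by day, 1 member was called, and none was called without the filter on low counts, with the older form of the quasi-likelihood test or with lane as a term over the 42 libraries of a day, whereas DESeq2 called 3. Leaving out 1 steer gave 0 to 1. DESeq2 added TOP1 (FDR 0.0969) and TOP3B (FDR 0.0993) on day 7. In the other treatments 2 members were called, 6 with DESeq2 and 0 with lane as a term. The share of all genes that DESeq2 called is not given here, so its added calls do not set these members apart from other genes. The change from day 0 in ENRO called no member, 1 when fitted on the ENRO and NC libraries only, and 0 to 2 when 1 steer was left out of that fit. TOP2A then had FDRs from 0.00172 to 0.207, and the count exceeded 0 without NC1, NC15, Enro6 or Enro9. The average over days called 0 members under each alternative. The effect of day called 5 members, 4 in NC or CEFT alone and 6 in FLOR alone or without lane 1. The member added was TOP1MT (FDR 0.0361 in FLOR alone), which had counts in 15 of 36 FLOR libraries and at most 10 in any. Of the 19056 genes tested, 15313 were called over all steers and 14390 without lane 1. In single groups 6864 were called in NC, 9018 in CEFT and 8375 in FLOR.

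Without steer as a block, the change from day 0 in ENRO called 0 members and the effect of day 5, as with it. The pairing of days within steers thus changed neither count of members. Over all genes it did matter, as the change from day 0 in ENRO called 1652 genes with the block and 250 without it.

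The sign turned for TOP2B in OXYT on day 3 after ComBat_seq by lane (log2 0.0145), for TOP1 in CEFT (0.0436) and TOP3A in OXYT (0.16) on day 14 with lane as a term, and for TOP2B on day 56 in ENRO alone (2.03e-05). The cause was not tested. The alternatives by single gene were run for results with an unadjusted p under 0.05 or a call. The older form of the test, the robust prior and leaving out steers in the other treatments were added after the data had been seen. Depth limited the tests of TOP1MT, which had counts in 110 libraries.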
